A study of Mus musculus with 16 samples.

Results

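Coagulation factor X (F10) and 8 genes that act with it in starting, limiting or dissolving a clot were followed in the mouse bladder: F3, F2r, F2rl1, F13a1, Thbd, Tfpi, Plat and Plau. All 9 genes, of 20145 with a symbol on the array, had a probe, and together they held 14 of the 55681 probes. Every probe was kept apart, because the 2 probes of F10 did not behave alike. The genes were chosen by name with the age differences on these same arrays already known. Their differences between AGED and MAT bladders are therefore described, with no test. The bladder body was taken from C57BL/6 mice of both sexes, with RNA of 1 mouse on each 1-colour Agilent array and 4 arrays in each group. MAT males and MAT females were 12 months old, and AGED males and AGED females were 27 to 30 months old. The labels name no transgene or drug in any group.

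In the extrinsic pathway of clotting, tissue factor (F3) on cells outside the bloodstream binds factor VII and activates factor X. Activated factor X turns prothrombin into thrombin, which makes fibrin and also signals to cells by cutting protease-activated receptors. Plasmin, released from plasminogen by the activators encoded by Plat and Plau, dissolves the fibrin again. Factor X in plasma comes mainly from the liver, while tissue factor, the receptors and the activators are made in many tissues.

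Promoter sequences of RefSeq (GRCm38.p6) matched 5 of the 9 genes: F10, F3, F2r, F13a1 and Tfpi. The 250 bases upstream of the start site are shown for F10, which has the probe with the widest age difference, and for F3, which starts the pathway and lay nearly level with age. The F10 stretch is chr8:13037058-13037307 and the F3 stretch is chr3:121723287-121723536, both on the plus strand and written 5′ to 3′. Capitals mark matches, on either strand, to TATAAA (the TATA box), CCAAT (the CCAAT box), GGGCGG (the GC box), TGANTCA (the AP-1 site) or GAGGAA (the core bound by PU.1).
F10: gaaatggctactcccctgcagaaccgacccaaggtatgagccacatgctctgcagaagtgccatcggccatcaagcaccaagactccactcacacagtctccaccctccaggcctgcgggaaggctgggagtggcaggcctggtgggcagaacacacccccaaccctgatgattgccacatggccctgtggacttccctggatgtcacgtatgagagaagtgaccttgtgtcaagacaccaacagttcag
F3: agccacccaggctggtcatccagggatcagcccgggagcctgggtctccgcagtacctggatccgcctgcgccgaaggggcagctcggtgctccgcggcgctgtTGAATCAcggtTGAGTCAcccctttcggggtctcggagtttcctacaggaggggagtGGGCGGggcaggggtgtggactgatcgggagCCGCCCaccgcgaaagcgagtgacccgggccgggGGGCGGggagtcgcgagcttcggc
The F3 stretch held 3 matches to GGGCGG and 2 to TGANTCA, none of which overlapped. The F10 stretch held no match to any of the 5 motifs. Of 32851 stretches of this length in the table, 32.7% held GGGCGG, 6.75% TGANTCA, 33.8% CCAAT, 23.3% GAGGAA and 12.4% TATAAA. A match is a run of letters and not a measured binding site.

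Signals are log2 processed intensities relative to the 75th percentile of their array. Differences are on the same log2 scale. Their SE comes from the limma fit, in which the 4 groups of a probe share 1 spread. It therefore does not follow the spread within each sex. The level of a probe cannot be set against that of another probe. All 5 urothelial markers and all 5 smooth muscle markers were well above background on every array. On AGED male replicate 1, 52.4% of probes were well above background, against 58.7% to 68.3% on the other arrays. Females were all on slide 1 and males all on slide 2, and MAT arrays lay in row 1 and AGED arrays in row 2 of each slide. Sex and slide cannot be told apart, nor can age and slide row. In whole tissue, fewer cells of a type and less RNA per cell cannot be told apart either.

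For F10, the zymogen that becomes the thrombin-forming protease, probe A_51_P174961 read -5.40, -4.31, -5.25 and -4.37 on the MAT male arrays and -0.54, -2.79, -3.14 and -1.90 on the AGED male arrays. All 4 AGED male arrays lay above all 4 MAT male arrays. The AGED mean was 2.74 ± 0.57 (SE, n = 4 and 4) higher, or 6.68-fold. The list in the study gives F10, and the neutrophil marker S100a9, as lower in AGED bladders, whereas the directions here follow the label of each array. The reason for this conflict was not tested. The sign of every AGED minus MAT difference given here therefore rests on those labels. In females the probe read -4.25, -4.72, -2.50 and -5.14 on MAT arrays and -2.68, -1.80, -2.56 and -2.32 on AGED arrays. MAT female replicate 3 lay among the AGED arrays, and the other 3 MAT arrays lay below all 4. The mean difference was 1.81 ± 0.57 (SE), or 3.51-fold, and it was 2.36 without that MAT array and 1.10 with normexp background correction. The probe was well above background on all 16 arrays, but it was dim in MAT mice. Its mean processed signal (taken on the log scale) was 35.0 in MAT males and 66.8 in MAT females. In AGED males it was 202 and in AGED females 242. The size of the fold therefore rests in part on dim MAT signals. Without AGED male replicate 1, its highest array, the male difference was 2.22, and with normexp background correction it was 1.79.

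The other F10 probe, A_55_P2106078, showed no such gap. It read 7.76, 8.57, 7.94 and 7.61 on MAT male arrays and 8.59, 7.67, 8.49 and 7.62 on AGED male arrays, which interleaved. In females the readings were 7.69, 7.66, 7.53 and 7.41 (MAT) and 7.99, 7.78, 7.27 and 7.85 (AGED), and these overlapped too. The AGED minus MAT differences were 0.12 in males and 0.15 in females, each with an SE of 0.25. With another background correction (normexp) the male difference was -0.55. Both probes carry the same RefSeq transcript as their annotation, so the age difference of F10 rests on 1 of its 2 probes. Their processed signals differed widely. Group means (taken on the log scale) ran from 225870 to 258930 for A_55_P2106078 and from 35.0 to 242 for A_51_P174961. How well each of the 2 reports F10 was not tested. The probes' own sequences were not used here.

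**Figure D1:**
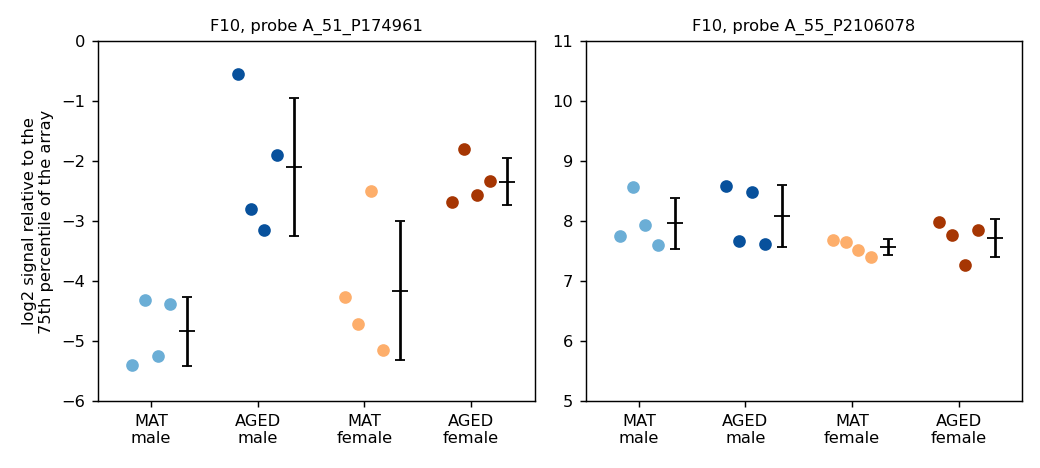
Log2 signal relative to the 75th percentile of the array (y axis, 6 units in both panels) for the 2 probes of F10 in MAT and AGED males and females (x axis). Points are arrays, 4 in each group, and bars are the mean ± SD. On the left all AGED male arrays lie above all MAT male arrays and 1 MAT female array reaches the AGED level, while on the right the groups overlap.

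Markers of blood cells that the bladder wall can hold were read on the same arrays. Summed over 5 neutrophil genes, the scaled linear level ran from 1.20 to 2.21 in MAT males, 2.33 to 7.37 in AGED males, 1.78 to 2.02 in MAT females and 2.003 to 2.71 in AGED females. Of the 5, S100a8 (2.43 ± 0.49 SE, limma adjusted p = 0.0224) and S100a9 (3.08 ± 0.55 SE, limma adjusted p = 0.0127) rose in AGED males. The other 3 did not pass the test there, with AGED minus MAT differences of -0.51 for Mpo, -0.26 for Elane and -0.01 for Cxcr2 (limma adjusted p = 0.440, 0.743 and 0.995). Cxcr2 was well above background on none of the 4 AGED male arrays. The study lists S100a9 among its most changed genes on these same arrays, and the markers were chosen with earlier results known. The p values of S100a8 and S100a9 are therefore no independent test. In females none of the 5 passed the test. Their differences were 1.12 for S100a8, 1.62 for S100a9, 1.29 for Cxcr2 and 0.43 for Mpo, but -0.88 for Elane (limma adjusted p = 0.346 to 0.707). Summed over 7 macrophage genes, the level ran from 77.4 to 96.1 in MAT males, 85.2 to 165.7 in AGED males, 73.6 to 83.5 in MAT females and 64.5 to 116 in AGED females. Csf1r, the brightest of them, weighs most in this sum. The 7 did not move alike in males. Adgre1 probe A_55_P2144386 (-0.58 ± 0.38 SE) and Mrc1 (mean 3.12 in MAT and 2.65 in AGED) were lower in AGED males, and the other genes were higher. The other Adgre1 probe, A_55_P2018934, differed by 0.04 ± 0.42 (SE), so the probes of Adgre1 gave no common difference. Of 4 hepatocyte genes, 2 were kept, and their sum ran from 0.538 to 3.87 over all arrays with the groups overlapping. The part of these cells in the F10 difference was not tested.

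F3 encodes tissue factor, the receptor that binds factor VII. Probe A_55_P1971889 read 3.52, 3.94, 3.08 and 3.85 in MAT males, 3.48, 3.38, 3.35 and 3.68 in AGED males, 3.54, 3.50, 3.95 and 3.25 in MAT females, and 3.35, 3.26, 3.74 and 3.12 in AGED females. The 4 groups overlapped throughout. The age differences were -0.12 in males and -0.19 in females. The other F3 probe, A_65_P08971, gave -0.00 in males and -0.19 in females, and its groups overlapped as well.

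F2r encodes the thrombin receptor PAR1. Its probe read 2.07, 2.58, 2.18 and 2.67 in MAT males and 2.57, 2.80, 2.81 and 3.06 in AGED males, which overlapped. It read 2.18, 2.60, 2.61 and 2.61 in MAT females and 3.04, 2.87, 2.76 and 2.68 in AGED females, which did not. The differences were 0.43 in males and 0.34 in females, each with an SE of 0.16. F2rl1 encodes PAR2, a receptor that activated factor X bound to tissue factor can cut. Its probe read -4.77, -3.21, -4.62 and -4.36 in MAT males, -5.23, -4.37, -4.91 and -3.77 in AGED males, -4.65, -4.40, -4.17 and -4.15 in MAT females and -4.35, -4.18, -4.53 and -5.48 in AGED females. These readings lay near background, with 2 of 4 AGED male and 3 of 4 AGED female arrays well above it, and every MAT array. The AGED minus MAT differences were -0.33 in males and -0.29 in females, with overlapping groups.

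F13a1, the A subunit of factor XIII, cross-links fibrin and is also found in macrophages. Probe A_51_P507801 read 3.74, 4.16, 3.79 and 3.94 in MAT males and 4.52, 4.31, 4.04 and 4.26 in AGED males. In females it read 3.76, 3.77, 3.71 and 3.38 (MAT) and 3.76, 3.44, 4.19 and 4.33 (AGED). The groups overlapped in both sexes. The age differences were 0.38 and 0.27, with an SE of 0.19. Its dimmer probe, A_55_P2186125, gave 0.79 ± 0.28 (SE) in males and 0.36 ± 0.28 (SE) in females, again with overlap, so both probes had the same sign. The macrophage marker sums above reached higher in AGED males, with overlap, and their part in the F13a1 values was not tested.

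Thbd encodes thrombomodulin, the endothelial receptor with which thrombin activates the anticoagulant protein C. It read 2.27, 2.93, 3.10 and 3.68 in MAT males and 2.85, 3.40, 3.05 and 3.24 in AGED males. In females the readings were 3.59, 3.51, 3.91 and 3.49 (MAT) and 4.35, 4.37, 3.92 and 4.09 (AGED). Male groups overlapped, while all AGED female arrays lay above all MAT female arrays. The differences were 0.14 in males and 0.56 in females, each with an SE of 0.24.

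Tfpi encodes tissue factor pathway inhibitor, which blocks activated factor X and the tissue factor complex, and it had 3 probes. Probe A_66_P132295 read 1.48, 1.84, 1.73 and 1.97 in MAT males, 1.02, 1.64, 1.56 and 0.72 in AGED males, 1.997, 1.93, 2.03 and 1.86 in MAT females, and 1.63, 1.69, 2.02 and 1.86 in AGED females. Its age differences were -0.52 and -0.15, with overlap. Probe A_52_P670263 gave 0.24 in males and -0.14 in females, and MAT male replicate 4 alone read -1.40 against 0.46 or more on the other 3. Without that array the male difference was -0.26, of the opposite sign. Probe A_55_P2095360 gave -0.01 and -0.04. The 3 probes thus gave no common age difference in males.

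Plat encodes tissue-type plasminogen activator. It read 0.39, 1.21, 0.52 and 1.11 in MAT males and 0.37, 0.79, -1.04 and 0.15 in AGED males. In females it read 0.94, 0.90, 1.09 and 0.74 (MAT) and 1.76, 1.97, 1.28 and 1.63 (AGED). Male groups overlapped, and all AGED female arrays lay above all MAT female arrays. The AGED minus MAT difference was -0.74 in males and 0.74 in females (SE 0.31 each, from the shared spread). The opposite signs were not tested, since the gene was chosen with both differences known. Male arrays spread more, with an SD of 0.41 (MAT) and 0.78 (AGED), against 0.14 and 0.29 in females. Without AGED male replicate 3, its lowest array, the male difference was -0.37. Plau encodes urokinase, which works at the cell surface. It read -1.05, -0.57, -0.73 and -0.49 in MAT males, -1.12, -1.04, -1.19 and -0.56 in AGED males, -0.30, -0.35, -0.49 and -0.39 in MAT females and -0.50, -0.55, -0.12 and -0.27 in AGED females. The differences were -0.27 in males and 0.02 in females, and the groups overlapped.

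**Figure D2:**
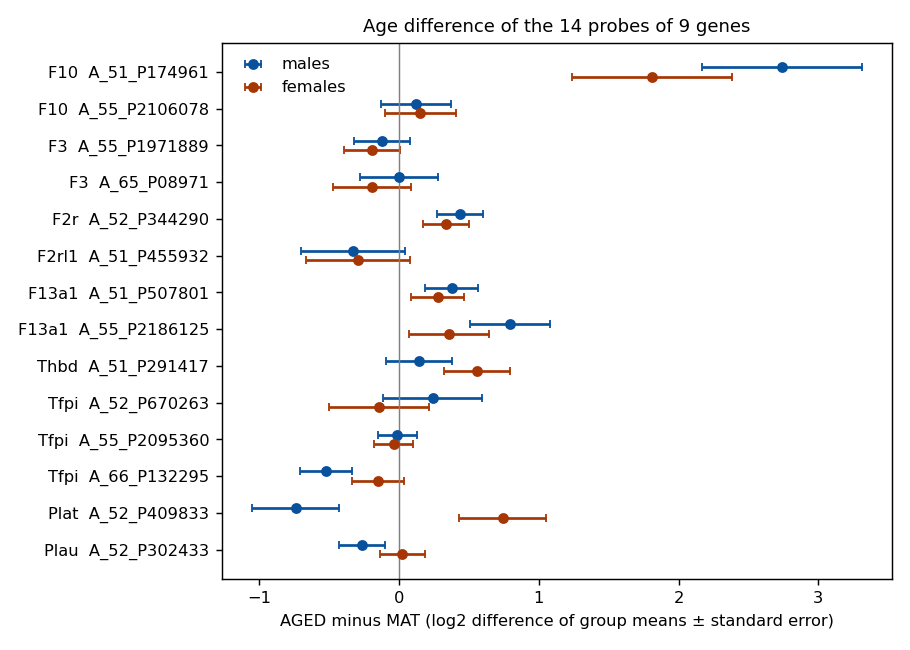
AGED minus MAT difference of the group means (x axis, log2, ± SE) for each of the 14 probes (y axis), with males in blue and females in red, 4 arrays in each group. Only F10 probe A_51_P174961 lies beyond 1 in either sex (2.74 and 1.81), and Plat is the probe with differences of opposite sign and like size (-0.74 and 0.74).

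Over the 14 probes the median age difference was 0.06 in males (range -0.74 to 2.74) and 0.09 in females (-0.29 to 1.81), beside 0.00 and -0.01 over all 36974 probes tested. In males 7 probes were higher and 7 lower, and in females 8 were higher and 6 lower. A probe was called where its groups differed 2-fold or more with an adjusted p by limma below 0.05. No age call is given for the 14 probes, whose age differences were known when they were chosen. Over all probes the share called was 0.79% in males and 0.173% in females. Groups did not overlap for 1 probe in males (F10), beside 7.6% of all probes, and for 3 in females (F2r, Thbd and Plat), beside 10.6%. These counts follow from how the genes were chosen, and nothing is read from them.

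Males and females were then compared at each age. This contrast was not the one that picked the genes, but it uses the same arrays and holds the known age differences in part, so its values are given with no p for single genes. Slide goes with sex throughout. Among MAT mice limma called 0 of the 14 probes, beside 0.165% of all probes, with 2 at an unadjusted p under 0.05 beside 13% of all probes. Thbd had means of 2.99 in MAT males and 3.62 in MAT females, a difference of -0.63 ± 0.24 (SE). Among AGED mice it called 2 of the 14, Plat and Thbd, both lower in males, beside 3.07% of all probes. The male minus female difference of a gene in AGED mice is that in MAT mice plus the male less the female age difference. This count is therefore no independent test, for Plat or for Thbd.

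Plat was lower in AGED males than in AGED females in every pairing of arrays, with means of 0.07 ± 0.78 and 1.66 ± 0.29 (SD, n = 4 each). The difference was -1.59 ± 0.31 (SE), a 3.01-fold lower signal, beside -0.11 among MAT mice. Thbd had means of 3.14 ± 0.24 and 4.18 ± 0.22 (SD, n = 4 each), with a difference of -1.05 ± 0.24 (SE), 2.07-fold. Thbd fell under the 2-fold limit without AGED male replicate 1 or AGED female replicate 1 or 2. Plau was 1.53-fold lower in AGED males (-0.62 ± 0.16 SE), below the fold limit, with no overlap between the sexes. For Tfpi probe A_66_P132295 the difference was -0.57 ± 0.19 (SE). Both F10 probes overlapped between the sexes at each age.

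Endothelial cells carry Thbd and release Plat. Summed over 6 endothelial markers, the scaled linear level ran from 5.22 to 7.40 in AGED males, 7.07 to 7.65 in AGED females, 6.80 to 8.99 in MAT males and 6.46 to 8.87 in MAT females. All 6 were well above background on every array, and the AGED sexes overlapped. Their part in the Plat and Thbd differences was not tested.

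**Figure D3:**
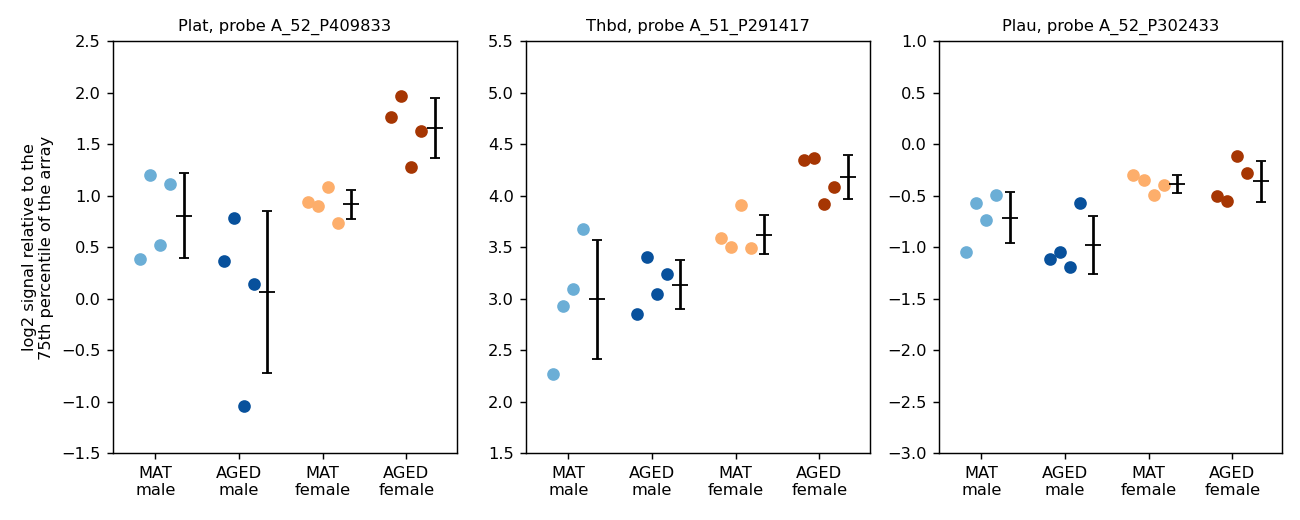
Log2 signal relative to the 75th percentile of the array (y axis, 4 units in each panel) of Plat, Thbd and Plau in the 4 groups (x axis). Points are arrays and bars the mean ± SD. In all 3 panels the AGED male arrays lie below the AGED female arrays, while MAT males and MAT females overlap.

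Another 40 genes of clotting and fibrinolysis were read alongside, and 29 of them had a kept probe (31 probes). Of these, 9 encode clotting factors, 7 inhibitors, 10 the plasminogen system and 3 the vitamin K cycle that matures factor X. Neither of the other 2 protease-activated receptors, F2rl2 and F2rl3, was kept. The fibrinogen chains Fga, Fgb and Fgg and plasminogen (Plg) were not kept either. Their probes were well above background on at most 1 array of any group, so the clot substrate and the target of Plat and Plau were not measured here.

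With age, limma called 2 of the 31 probes in males, 1 higher and 1 lower, beside 0.79% of all probes called. In males 5 had an unadjusted p under 0.05 by limma, beside 16.1% of all probes. In females limma called 0, beside 0.173% of all probes called. There 3 had an unadjusted p under 0.05, beside 9.93% of all probes. Kng1 encodes kininogen, a cofactor of contact activation, and its probe A_55_P2003414 averaged -4.41 ± 0.19 in MAT males and -2.54 ± 0.37 in AGED males (SD, n = 4 each). It rose 3.66-fold (1.87 ± 0.38 SE, limma adjusted p = 0.0230, 0.0135 to 0.150 over the alternatives). The difference itself ran from 0.68 to 2.01 over the alternatives. Its mean processed signal (taken on the log scale) was 46.9 in MAT males and 148 in AGED males. The size of the fold therefore rests in part on dim MAT signals. In females Kng1 differed by 1.19 ± 0.38 (SE, limma adjusted p = 0.309). The other Kng1 probe, A_55_P2003410, was well above background on none of the 16 arrays. Serpind1, heparin cofactor II, an inhibitor of thrombin, fell in AGED males (difference -2.12, SE 0.42, limma adjusted p = 0.0210, 0.00567 to 0.157 over the alternatives). It was well above background on all MAT male arrays and on 1 of 4 AGED male arrays, so the size of the difference rests on signals near background, and with normexp it was -0.46. In females it differed by -1.06 (limma adjusted p = 0.422). Without MAT male replicate 1 or 3 neither gene was called, and without MAT male replicate 2 only Kng1 was.

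For the genes that act directly beside factor X no age difference passed the test. Prothrombin (F2) differed by 0.40 ± 0.25 (SE) in males (limma adjusted p = 0.440) and 0.47 ± 0.25 in females (limma adjusted p = 0.557). Factor V (F5), the cofactor of activated factor X, differed by -0.04 in males and 0.27 in females (SE 0.21, limma adjusted p = 0.945 and 0.725). Factor VII (F7) differed by 0.96 ± 0.57 (SE) in males and 0.11 ± 0.57 in females (limma adjusted p = 0.424 and 0.978), with 1 of 4 arrays well above background in each male group. In the plasminogen system, the urokinase receptor Plaur differed by 0.02 in males and 0.65 in females (SE 0.37, limma adjusted p = 0.984 and 0.599). Procr, the endothelial protein C receptor that works beside Thbd, differed by -0.07 and 0.30 (SE 0.17, limma adjusted p = 0.862 and 0.589).

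**Figure D4:**
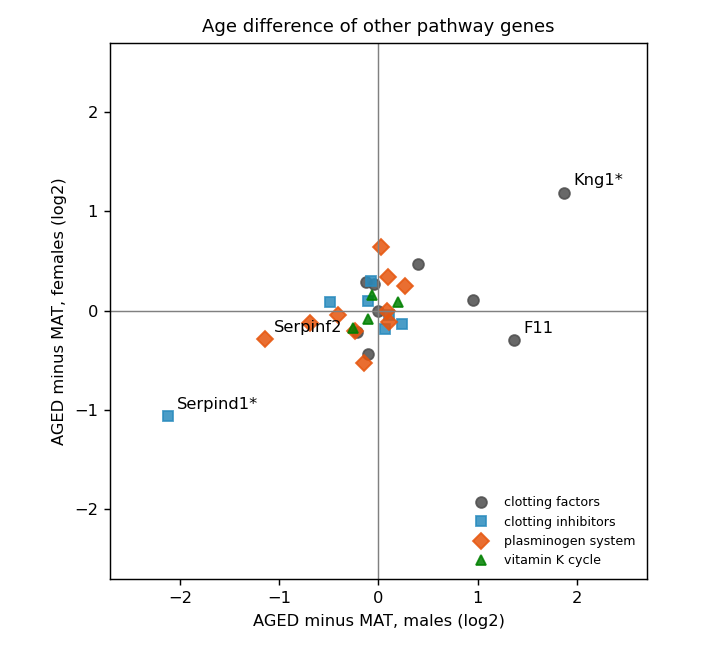
AGED minus MAT difference in males (x axis, log2) against that in females (y axis, log2) for the kept probes of the other pathway genes except 1 that is not shown, with a marker for each role. Asterisks mark the 2 probes called in males, Kng1 (1.87) and Serpind1 (-2.12), and gene names mark plotted probes beyond 1 in either sex.

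Between the sexes, limma called 0 of the 31 probes among MAT mice, beside 0.165% of all probes called. Of the 31, 9 had an unadjusted p under 0.05, beside 13% of all probes. Among AGED mice it called 3, F11, Serpinc1 and Tfpi2, beside 3.07% of all probes, and 13 had an unadjusted p under 0.05, beside 25.5%. F11 and Tfpi2 were each kept through the arrays of 1 sex alone, so nothing is read from these AGED counts. Serpinc1, antithrombin, which inhibits thrombin and activated factor X, was lower in AGED males (-1.17 ± 0.28 SE, limma adjusted p = 0.0198, and -0.41 with normexp). It was well above background on 1 of 4 AGED male and all AGED female arrays, and without AGED male replicate 3 its difference fell under the fold limit at -0.84. Without AGED female replicate 4 its adjusted p by limma was 0.0618. F11, factor XI, was well above background on 3 of 4 AGED male and no AGED female arrays, and was at least 1.97-fold higher in males. It was above background on no female array at either age and was kept through the male arrays alone, so no p is given. Tfpi2, a Kunitz inhibitor related to Tfpi, was well above background on 2 of 4 AGED female and no AGED male arrays. It was kept through the female arrays alone, so no p is given. Its measured means were -5.42 and -6.99, and with normexp background correction the difference was 0.11. Procr was 1.58-fold lower in AGED males (-0.66 ± 0.17 SE, limma adjusted p = 0.0266), below the fold limit.

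The genes whose signal ran most like each F10 probe over the 16 arrays were ranked by Pearson's r, as a description. For A_51_P174961 they were Fpr2 (r = 0.892), Ms4a8a (0.885), Tnfrsf1b (0.870), Snx11 (0.858) and Ggct (0.857). For A_55_P2106078 they were Cass4 (0.896), Rplp2 (0.896), Timm17a (0.885), Fmo1 (0.873) and Net1 (0.873). No gene stood in both lists. After the 4 group means were taken out, the closest were Gm5901 (0.931), A530064D06Rik (0.884), Ccl6 (0.852), Prdm8 (0.848) and Tnip3 (0.844) for A_51_P174961. For A_55_P2106078 they were Tlr7 (0.933), Tgfbr1 (0.927), Ccdc90b (0.917), Mob4 (0.907) and Ssr1 (0.902). The 16 arrays share slides, and each ranking is the top of the kept probes with a symbol, 20982 in all.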

How the data were processed

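Bladder RNA of 16 mice was measured on 1-colour Agilent arrays, 1 mouse per array. The authors deposited an intensity for each spot from Feature Extraction (10.7.3.1 per the file headers), background-subtracted and not normalized between arrays. They also deposited log2 values centred on each probe's median, which matched the scaled intensities (r of at least 0.9999) in scale and direction and served as an alternative. Groups follow the age and sex in the labels.

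The log2 processed signal was scaled by the 75th percentile of its array. Control spots and outlier-flagged spots (399 probe values) were left out, and no spot was saturated. Replicate spots were averaged. Probes were named through RefSeq accessions, 26582 of 55681. Probes flagged well above background on 4 or more of the 16 arrays were kept (36974 probes, 20982 with a symbol). The number of arrays limits the precision.

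Each kept probe was tested on its own with limma (3.58.1, R 4.3.3), fitting 4 group means to all arrays (12 residual degrees of freedom). Calls needed a Benjamini-Hochberg adjusted p under 0.05 and a 2-fold difference. The procedure was tested on simulated data. Where no array of a group rose well above background, a fold is a bound: each such array counts at its lowest signal well above background, or at the probe's signal if greater. The members and lists were chosen with earlier results of these data known, and members' differences carry no p. Named beside the members were pathway genes called in any comparison, 10 set genes (F2, F5, F7, Fga, Fgb, Fgg, Plg, Plaur, Procr and 1 that is not reported here) and the 5 genes most like each F10 probe. Marker sums add 1 probe per gene, the brightest measured on all arrays, on the linear scale. Alternatives covered scaling, background correction, filters, a floor, summaries per gene, the methods' t-test, each sex alone, a replicate block, array weights, a trend and leaving out each array. Listed erythroid, platelet and fibroblast markers were read too, and their sums overlapped between AGED and MAT in both sexes.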

Additional observations from a re-analysis of the deposited data

Results flagged for a closer look

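In 5 of 76 groups of 4 arrays examined (6.58%), 1 array stood apart from the other 3 by more of the group's range than Dixon's 95% limit allows. Chance gives about 1 group in 20. The F2r probe read 2.18 on MAT female replicate 1 against 2.60 or more on the others (gap 0.976 of the range). F13a1 probe A_51_P507801 read 3.38 on MAT female replicate 4 against 3.71 or more (0.840). Tfpi probe A_52_P670263 read -1.40 on MAT male replicate 4 against 0.46 or more (0.844). Serpinc1 read -5.59 on AGED male replicate 3 against -4.34 or more (0.843). Tfpi2 read -6.05 on AGED female replicate 1 against -5.28 or more (0.862).

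The AGED minus MAT difference of Plat was -0.74 in males, where the groups overlapped, and 0.74 in females, where they did not. Without AGED male replicate 3 the male difference was -0.37. The difference between the sexes in this age change was not tested.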

How the results depend on the processing

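Of 732 values of single probes under the alternatives, 707 were counted as unchanged. A tested value had to keep its direction and its side of the threshold. A value with no test had only to stay within 1 SD of the main value, so its sign could turn. Counts had to stay equal or close, and medians within 1 SD, as 175 of 194 did. The median age difference of the 14 probes was 0.32 in females with probes of a gene averaged and -0.12 in males with the brightest probe per gene. The 2 members that differed between AGED males and females became 0 by the methods' t-test after adjustment, 1 with array weights and 1 to 2 when an array was left out. Among MAT mice the count was 0 under each alternative. The male pathway count of 2 became 0 with normexp and with the adjusted t-test, 1 with the filter on all 16 arrays, with each sex fitted alone and with array weights, 4 by unadjusted limma, and 0 to 2 when an array was left out. The female count of 0 became 1 by the unadjusted t-test and 2 by unadjusted limma. Under normexp, Tfpi2 turned to 0.11 between AGED males and females, and Thbd (-0.78), F11 (1.00) and Serpinc1 (-0.41) fell under the fold limit, while the median of all probes moved from 0.08 to 0.26. With a floor on low signals Tfpi2 was -0.03. Normexp also moved the male age difference of Tfpi probe A_55_P2095360 to -0.13. Signs turned under at least 1 alternative for differences near 0: in males for F10 probe A_55_P2106078, F2rl1 (0.11 with normexp), both F3 probes, Tfpi probes A_52_P670263 and A_55_P2095360, Thbd and the median, and in females for Plau and Tfpi probe A_55_P2095360. The cause was not tested.

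Age calls over all probes in males were 91 higher and 201 lower, against 88 and 270 with quantile scaling, 76 and 291 with median scaling and 74 and 845 with normexp. Sex calls in AGED mice were 445 and 690, against 316 and 838, 354 and 787, and 256 and 1197. Same replicate numbers did not pair arrays (correlation of deviations -0.15 to 0.06, and 2 of 16 arrays correlated best with their own number). With the replicate block the male pathway count was 1, as Serpind1 reached a limma adjusted p of 0.0530, and the other counts did not change. Signals near background limit F2rl1, F7, F11, Serpinc1, Serpind1 and Tfpi2. Dim MAT signals limit the folds of F10 probe A_51_P174961 and of Kng1 probe A_55_P2003414.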
